A study of Mus musculus with 18 samples.

Results

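The 9 genes described here belong to the naive and quiescence programme of T cells, and were followed in bone marrow T cells of mice in which interleukin-10 (IL-10) was switched on. They were taken by name from a panel of 23930 genes, as the rows for Klf2, Klf3, Ccr7, S1pr1, Lef1, Tcf7, Foxp1, Satb1 and Bach2. All 9 were on the panel, and all 9 were among the 11316 genes that passed a filter on low counts. The pMT-10 mouse carries an IL-10 transgene behind a metallothionein promoter, which zinc activates. This promoter is not specific to T cells. The groups were C57BL/6 mice, which lack the transgene, on zinc-enriched water, pMT-10 mice on zinc-enriched water, and pMT-10 mice on control water. Each regimen lasted 30 days. CD4 and CD8 T cells were sorted from the marrow of 3 mice of each kind, which gave 18 libraries in 6 groups of 3. The mice's ages are not analysed here. RNA was read with a targeted amplicon panel, in which a short piece of each transcript is amplified and its reads are counted.

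A naive T cell circulates between blood and lymphoid organs and is kept small, long-lived and out of division by a set of transcription factors. Klf2 drives S1pr1, whose product lets a cell leave tissue along a lipid gradient, while Ccr7 guides entry into lymph nodes. Tcf7 and Lef1 encode HMG-box factors that maintain naive and memory-forming T cells, and Foxp1, Satb1 and Bach2 encode repressors or chromatin organisers that hold back effector programmes. Antigen and inflammatory cytokines lower most of these genes as a T cell becomes an effector.

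The levels below are reads per 1000000 counted (CPM) after scaling for library size and composition with TMM factors, as mean ± SD of 3 libraries. A library held 10546798 to 18519474 counts, and the 9 genes had from 225 to 57424 reads each in a library. Nothing in the labels ties a CD4 library to a CD8 library of the same mouse. The replicate numbers follow record order and carry no other meaning. Cd4 ran from 1654 to 3405 CPM in the CD4 libraries and to at most 5.56 in the CD8 libraries, and Cd8a from 1817 to 2571 in the CD8 libraries and to at most 10.03 in the CD4 libraries. Il10 stood at 26.0, 16.6 and 20.9 CPM in CD4 cells of zinc-fed pMT-10 mice, above the 3.01 to 8.25 of zinc-fed C57BL/6 and the 1.40 to 3.63 of pMT-10 mice on control water. In CD8 cells Il10 was 22.4, 3.20 and 12.9 CPM in zinc-fed pMT-10 mice and had 0 reads in both other groups. By their sample labels, the libraries of zinc-fed mice came from one sequencing chip and those of control-water mice from another. An effect of chip and one of zinc cannot be told apart. Sex also differed with strain, since Y-linked reads summed to 268 to 421 CPM in C57BL/6 libraries and to at most 0.683 in pMT-10 libraries.

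All 9 genes fell in CD4 cells of zinc-fed pMT-10 mice, against zinc-fed C57BL/6 and against pMT-10 mice on control water alike. The falls against C57BL/6 ran from 2.28-fold for Tcf7 to 6.39-fold for S1pr1. In CD8 cells of the same mice the values of all 9 were also lower on average, but only Lef1 and Tcf7 passed the test against C57BL/6, and only Lef1 against pMT-10 mice on control water. Between the groups without induced IL-10, none of the 9 genes passed the test. The test is edgeR's quasi-likelihood test with Benjamini-Hochberg adjustment over all 11316 genes, and a gene is called at an adjusted p under 0.05. In sorted populations measured in bulk, a loss of cells that hold a transcript and less transcript per cell cannot be told apart.

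**Figure D1:**
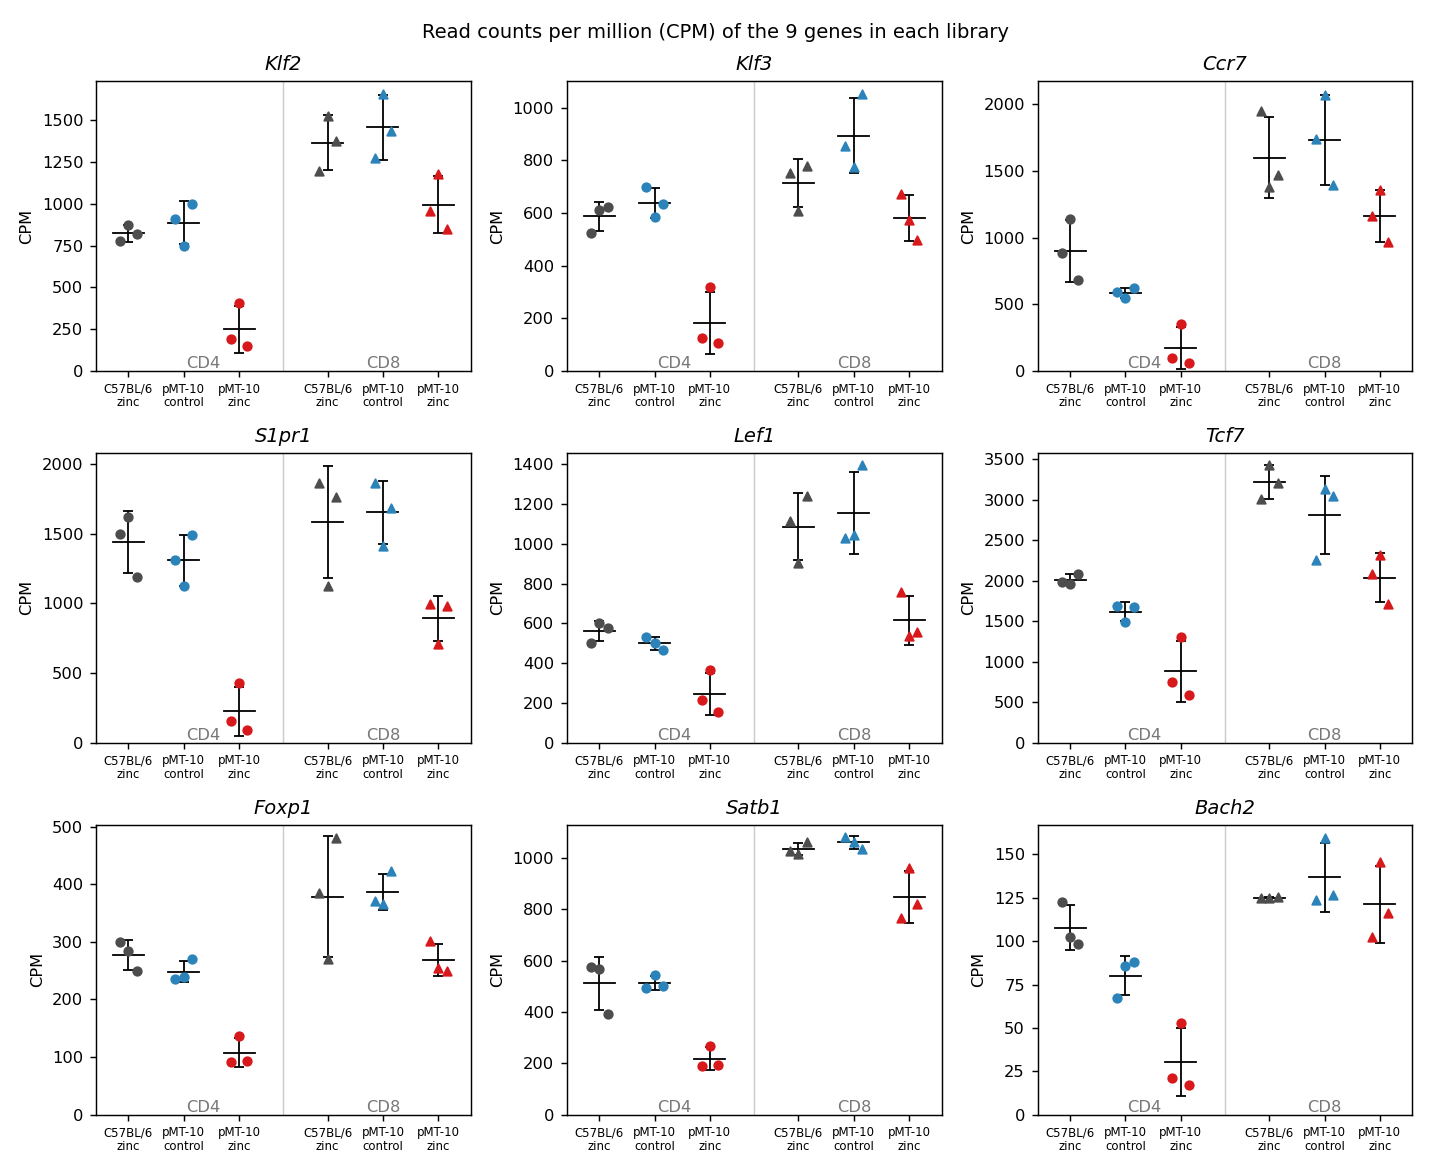
CPM (linear axes from 0) of the 9 genes in each of the 18 libraries, with CD4 libraries as circles and CD8 libraries as triangles, and with black lines and bars for the mean ± SD of 3. The zinc-fed pMT-10 CD4 libraries (red circles) lie below every other library for each gene.

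Promoter windows were read for the members because all 9 moved in 1 direction in CD4 cells. The RefSeq table for GRCm38.p6 holds windows for 7 of the 9 genes, and none for Ccr7 and S1pr1. Klf2, Klf3 and Bach2 have a single window each and are shown, as the 250 bases before the annotated start. Capitals mark matches, on either strand, to 8 short motifs: CACCC and GGGCGG, bound by KLF and SP proteins, CTTTGTT and CTTTGAT of TCF and LEF proteins, GTAAACA of FOXO proteins, TTCNNNGAA of STAT proteins, CAGCTG, an E-box, and CCGGAAG of ETS proteins.
Klf2, chr8:72318812-72319061, + strand: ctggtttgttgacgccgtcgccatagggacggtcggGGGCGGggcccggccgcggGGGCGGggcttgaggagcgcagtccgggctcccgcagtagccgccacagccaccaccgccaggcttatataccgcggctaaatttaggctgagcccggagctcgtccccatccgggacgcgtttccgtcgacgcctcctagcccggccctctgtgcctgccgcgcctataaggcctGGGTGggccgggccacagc
Klf3, chr5:64803271-64803520, + strand: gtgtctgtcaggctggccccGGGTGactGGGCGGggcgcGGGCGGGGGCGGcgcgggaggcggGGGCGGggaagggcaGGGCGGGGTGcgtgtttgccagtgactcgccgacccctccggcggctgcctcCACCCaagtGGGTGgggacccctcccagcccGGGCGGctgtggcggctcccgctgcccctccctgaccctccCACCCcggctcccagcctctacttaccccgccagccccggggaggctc
Bach2, chr4:32417185-32417434, + strand: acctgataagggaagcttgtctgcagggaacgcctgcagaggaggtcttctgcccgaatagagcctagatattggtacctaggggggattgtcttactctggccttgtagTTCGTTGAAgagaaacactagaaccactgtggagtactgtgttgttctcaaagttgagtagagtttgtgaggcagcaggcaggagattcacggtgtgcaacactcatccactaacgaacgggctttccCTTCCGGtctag
The windows before Klf2 and Klf3 are rich in G and C (71.2% and 78.4%, where the median of all 32851 windows is 52.4%). Klf2 holds 1 CACCC and 2 GGGCGG matches, and Klf3 holds 5 and 6, of which some touch or overlap. CACCC occurs in 52% and GGGCGG in 32.7% of all windows. The Bach2 window lies inside the span of the gene, 4:32238413-32586109, before an internal start, and has a G and C content of 50.4%. It holds 1 match to TTCNNNGAA, found in 7.02% of all windows, and 1 to CCGGAAG, found in 6.91%. Over all 17 windows of the 7 genes, CTTTGTT was found in 4, of Foxp1 and Satb1, against 5.03% of all windows, and the 2 of Satb1 overlap each other. Neither GTAAACA nor CTTTGAT was found in any of the 17. They occur in 3.17% and 3.21% of all windows. A match is a run of letters and does not show that a protein binds there.

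Klf2 (gene ID 16598, 8:72319062-72321654 in GRCm38) encodes a Krüppel-like zinc finger factor needed for T cell quiescence and egress. Its CD4 values were 777, 875 and 818 CPM in zinc-fed C57BL/6, 909, 747 and 1000.5 in pMT-10 on control water and 190.1, 406 and 149 in zinc-fed pMT-10. The induced libraries were all below both control groups, with no overlap. Klf2 fell 3.31-fold (log2 fold change -1.73 ± 0.25 SE, adjusted p = 7.07e-05) against C57BL/6 and 3.56-fold (log2 fold change -1.83 ± 0.25 SE, adjusted p = 3.80e-05) against control water. In CD8 cells the values were 1198, 1522 and 1377 CPM in C57BL/6, 1275, 1657 and 1437 on control water and 955, 1181 and 849 in induced mice. The induced CD8 libraries again lay below every control library, yet by less than the test required. The log2 fold changes were -0.46 ± 0.25 SE (adjusted p = 0.285) and -0.55 ± 0.25 SE (adjusted p = 0.201).

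S1pr1 (13609, 3:115710433-115715055) encodes the receptor for sphingosine 1-phosphate through which T cells leave lymphoid tissue and marrow. In CD4 cells it measured 1498, 1623 and 1192 CPM in zinc-fed C57BL/6, 1312, 1124 and 1490.1 in pMT-10 on control water and only 154, 427 and 93.6 in zinc-fed pMT-10. Induced libraries were at 10.7, 29.7 and 6.51% of the C57BL/6 mean, well apart from both control groups. The fall, 6.39-fold (log2 fold change -2.68 ± 0.40 SE, adjusted p = 2.12e-04) against C57BL/6 and 5.82-fold (log2 fold change -2.54 ± 0.40 SE, adjusted p = 3.16e-04) against control water, had the largest fold of the 9 genes in both comparisons. In CD8 cells the values were 1860.4, 1123 and 1763 CPM in C57BL/6, 1862, 1413 and 1682 on control water and 993, 707 and 980.4 in induced mice. The induced CD8 libraries were below all 6 control libraries. S1pr1 was not called there, with log2 fold changes of -0.82 (95% interval -1.64 to -0.01, adjusted p = 0.2101) and -0.89 (-1.70 to -0.08, adjusted p = 0.191).

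Ccr7 (12775, 11:99144199-99155077) encodes the chemokine receptor that takes naive T cells into lymph nodes. CD4 libraries held 885, 1141 and 678 CPM in zinc-fed C57BL/6, 590.2, 547 and 622 in pMT-10 on control water and 97.2, 354 and 62.2 in zinc-fed pMT-10. The induced libraries were lowest without overlap, and the control-water libraries also lay below all 3 of C57BL/6. Ccr7 fell 5.27-fold (log2 fold change -2.40 ± 0.46 SE, adjusted p = 0.00194) against C57BL/6 and 3.43-fold (log2 fold change -1.78 ± 0.46 SE, adjusted p = 0.0122) against control water. This last call was lost when induced CD4 replicate 1 was left out (adjusted p = 0.0606). CD8 values were 1946, 1382 and 1469 CPM in C57BL/6, 1742, 2065 and 1392 on control water and 1162, 1353 and 968 in induced mice, with the induced libraries lowest and no overlap. Neither log2 fold change was called: -0.46 ± 0.44 SE (adjusted p = 0.594) and -0.58 ± 0.44 SE (adjusted p = 0.508). These standard errors come from a fit in which all 6 groups, CD4 and CD8, share the spread estimate of a gene.

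Klf3 (16599, 5:64803521-64832901) encodes a Krüppel-like factor that acts mostly as a repressor. Its CD4 values of 525, 612 and 623 CPM in zinc-fed C57BL/6 and 697, 584 and 634 in pMT-10 on control water compare with 125, 317 and 105 in zinc-fed pMT-10. Replicate 2 of the induced mice was far above the other two but still below all controls. Klf3 fell 3.22-fold (log2 fold change -1.69 ± 0.28 SE, adjusted p = 3.23e-04) against C57BL/6 and 3.499-fold (log2 fold change -1.81 ± 0.28 SE, adjusted p = 1.69e-04) against control water. CD8 values were 753, 609 and 777 CPM in C57BL/6, 853, 774 and 1052 on control water and 671, 574 and 498 in induced mice. The induced CD8 libraries overlapped those of C57BL/6 and lay below those on control water, with log2 fold changes of -0.30 (adjusted p = 0.578) and -0.62 (adjusted p = 0.1998).

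The HMG-box genes Tcf7 and Lef1 were the members called in both cell types. Tcf7 (21414, 11:52246527-52283383) encodes TCF-1. Its CD4 values were 1983, 1965 and 2089 CPM in zinc-fed C57BL/6, 1688, 1486 and 1682 in pMT-10 on control water and 746, 1309.7 and 589 in zinc-fed pMT-10. The 3 groups did not overlap, with C57BL/6 highest and the induced mice lowest. Tcf7 fell 2.28-fold (log2 fold change -1.19 ± 0.20 SE, adjusted p = 2.59e-04) against C57BL/6 and 1.84-fold (log2 fold change -0.88 ± 0.20 SE, adjusted p = 0.003704) against control water, the smallest fall of the 9 in both. In CD8 cells it measured 3013, 3434 and 3214 CPM in C57BL/6, 2254, 3129.7 and 3042 on control water and 2083, 2320.0 and 1713 in induced mice, with the induced libraries below all of C57BL/6 but overlapping 1 control-water library. It fell 1.58-fold (log2 fold change -0.66 ± 0.20 SE, adjusted p = 0.0447) against C57BL/6 and was not called against control water (log2 fold change -0.46 ± 0.20 SE, adjusted p = 0.185). The C57BL/6 call was lost when any 1 of the 6 libraries compared was left out, with adjusted p from 0.0546 to 0.160.

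Lef1 (16842, 3:131110297-131224357) encodes the partner factor of TCF-1. CD4 cells gave 503, 601 and 578 CPM in zinc-fed C57BL/6, 534, 499.7 and 466 in pMT-10 on control water and 214, 363 and 157 in zinc-fed pMT-10. It fell 2.29-fold (log2 fold change -1.20 ± 0.22 SE, adjusted p = 6.00e-04) and 2.04-fold (log2 fold change -1.03 ± 0.22 SE, adjusted p = 0.00213) against these controls. CD8 cells gave 1114, 905 and 1239 CPM in C57BL/6, 1031, 1045 and 1394 on control water and 756, 536 and 555 in induced mice. In both cell types the induced libraries were below every control library. The CD8 fall was 1.76-fold (log2 fold change -0.82 ± 0.22 SE, adjusted p = 0.0225) against C57BL/6 and 1.88-fold (log2 fold change -0.91 ± 0.22 SE, adjusted p = 0.0116) against control water. The first of these was lost without C57BL/6 replicate 1 or 3 or induced replicate 2 or 3 (adjusted p from 0.0552 to 0.103), and the second without induced replicate 2 or 3 or control-water replicate 3 (0.0587 to 0.0726).

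Foxp1 (108655, 6:98925342-99522746) encodes a forkhead repressor that keeps naive T cells quiescent. CD4 cells had 299.8, 284 and 249 CPM in zinc-fed C57BL/6, 236, 239 and 269.7 in pMT-10 on control water and 92.1, 137 and 93.9 in zinc-fed pMT-10, with the induced libraries far below all others. Foxp1 fell 2.58-fold (log2 fold change -1.37 ± 0.18 SE, adjusted p = 1.37e-05) against C57BL/6 and 2.31-fold (log2 fold change -1.21 ± 0.18 SE, adjusted p = 5.13e-05) against control water. CD8 cells had 384, 271 and 481 CPM in C57BL/6, 371, 366 and 423 on control water and 301, 255 and 249 in induced mice. Low C57BL/6 replicate 2 overlapped the induced CD8 libraries, and no control-water library did. Neither change was called (log2 -0.50, adjusted p = 0.0844, and -0.53, adjusted p = 0.0724), although the first was called without C57BL/6 replicate 2 (adjusted p = 0.0128).

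Satb1 (20230, 17:51736187-51833290) encodes a chromatin organiser of developing and naive T cells. Its CD4 values were 575, 568 and 392 CPM in zinc-fed C57BL/6, 493, 543 and 499.6 in pMT-10 on control water and 189, 268 and 193 in zinc-fed pMT-10. These induced libraries were below all controls, with replicate 2 the highest of them. Satb1 fell 2.36-fold (log2 fold change -1.24 ± 0.15 SE, adjusted p = 5.89e-06) against C57BL/6 and 2.36-fold (log2 fold change -1.24 ± 0.15 SE, adjusted p = 5.48e-06) against control water. CD8 values were 1028, 1013 and 1060.1 CPM in C57BL/6, 1082, 1062 and 1035 on control water and 765, 962 and 819 in induced mice. All 3 induced CD8 libraries were the lowest, by a small margin, and the changes were not called (log2 -0.28, adjusted p = 0.2600, and -0.32, adjusted p = 0.213).

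Bach2 (12014, 4:32238413-32586109) encodes a repressor that restrains effector genes and has few reads here, 225 to 2391 a library. CD4 cells had 123, 102 and 98.4 CPM in zinc-fed C57BL/6, 67.05, 85.5 and 87.9 in pMT-10 on control water and 21.1, 52.9 and 16.9 in zinc-fed pMT-10. The 3 groups did not overlap, with the induced mice lowest. Bach2 fell 3.56-fold (log2 fold change -1.84 ± 0.28 SE, adjusted p = 1.12e-04) against C57BL/6 and 2.65-fold (log2 fold change -1.41 ± 0.28 SE, adjusted p = 0.00119) against control water. CD8 cells had 125, 125 and 126 CPM in C57BL/6, 124, 159.7 and 127 on control water and 102, 146 and 116 in induced mice, and here the induced libraries spread across both controls. The CD8 log2 fold changes were -0.04 (95% interval -0.61 to 0.52, adjusted p = 0.954) and -0.17 (-0.74 to 0.39, adjusted p = 0.788).

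Counted together, 9 of 9 members were called lower in CD4 cells against zinc-fed C57BL/6, where 9.4% of all genes tested were. The median log2 fold change of the 9 was -1.69, and that of all genes -0.05. All 9 were without overlap between the groups, against 18.8% of all genes in that direction. Against pMT-10 mice on control water, 9 of 9 were called lower beside 9.4% of all genes, 9 of 9 were without overlap beside 22.3%, and the median was -1.41. Both comparisons use the same 3 induced libraries. The 9 genes were chosen with earlier results of these data known, so the shares here and below only describe this set.

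In CD8 cells 2 of 9 were called lower against zinc-fed C57BL/6, beside 3.13% of all genes. In 6 of 9 the groups did not overlap, beside 11.4%, and a median log2 fold change of -0.46. Against control water 1 of 9 was called lower, beside 2.64%, 7 of 9 were lower without overlap, beside 11.2%, and the median was -0.55. No member was called higher in either cell type, beside 9.29 and 9.38% of all genes in the CD4 comparisons and 5.68 and 5.1% in CD8 cells. These CD8 counts depended on the filter on low counts, since without it 6 members were called lower against C57BL/6 and 7 against control water.

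**Figure D2:**
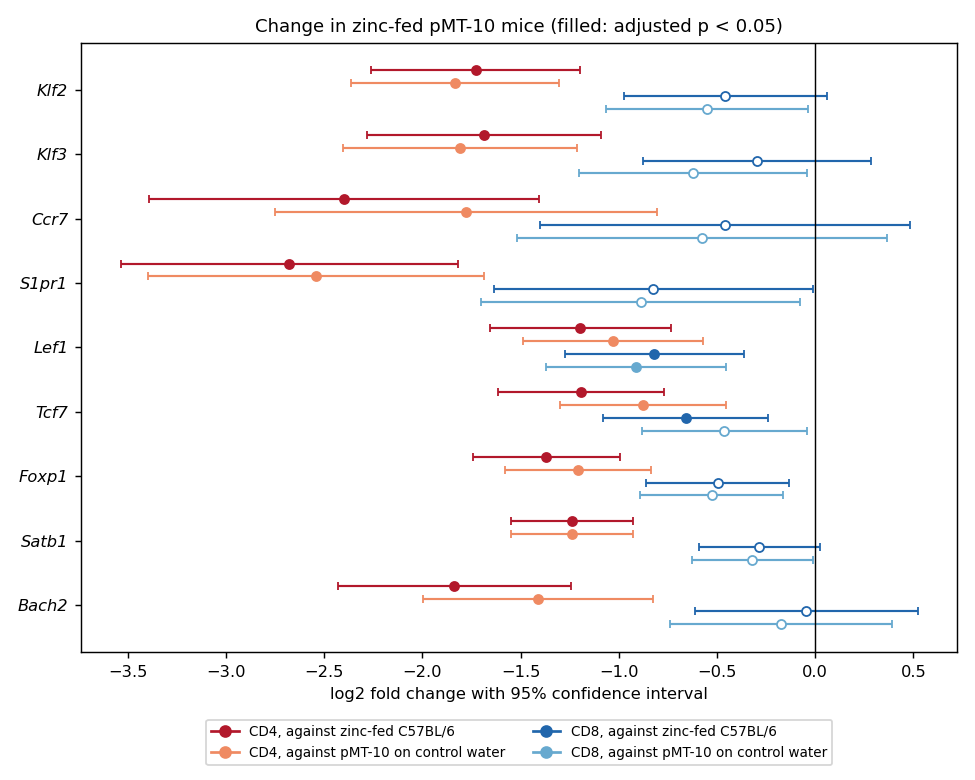
Log2 fold changes of the 9 genes in zinc-fed pMT-10 mice against each control, with 95% confidence intervals from edgeR's fit, in CD4 cells (reds) and CD8 cells (blues), where filled points passed an adjusted p of 0.05. All CD4 points are filled and lie between -2.68 and -0.88, while only Lef1 and Tcf7 have filled CD8 points.

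The control groups, without induced IL-10, differ at once in strain, sex, zinc and chip, and were set against each other for the net difference. Effects of these in opposite directions would offset each other, and single effects cannot be told apart. In CD4 cells none of the 9 genes was called by edgeR, and none had an unadjusted p under 0.05. DESeq2 also called 0, and edgeR without the filter on low counts called 1, Ccr7. In that comparison 0.0619% of all genes were called lower and 0.0795% higher. Ccr7, Tcf7 and Bach2 were lower in pMT-10 mice on control water than in C57BL/6 without overlap, 3 of 9 beside 5.48% of all genes, with log2 fold changes of -0.62, -0.31 and -0.43. Their 95% intervals, -1.56 to 0.32, -0.73 to 0.10 and -0.99 to 0.14, all include 0. In CD8 cells edgeR and DESeq2 called 0 of 9, with 0 at an unadjusted p under 0.05. Calls over all genes were 0.0707% lower and 0.0265% higher. No member was without overlap there, beside 4.51% of all genes lower and 4.56% higher, and log2 fold changes ran from -0.20 for Tcf7 to 0.32 for Klf3.

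CD8 cells held more of these transcripts than CD4 cells in every kind of mouse, on average, and the estimated gap was widest in the zinc-fed pMT-10 mice. In zinc-fed C57BL/6, Klf2, Lef1, Tcf7 and Satb1 were called higher in CD8 cells, 4 of 9 beside 9.28% of all genes, and 6 of 9 were higher without overlap, beside 16.2%. The largest difference there was that of Satb1, 2.02-fold (log2 1.01 ± 0.15 SE, adjusted p = 3.11e-05). S1pr1 (0.14, -0.67 to 0.94) and Bach2 (0.22, -0.35 to 0.78) had intervals that include 0, as did Klf3 (0.28) and Ccr7 (0.83). In pMT-10 mice on control water 7 of 9 were called higher, beside 8.94% of all genes, and Klf3 and S1pr1 were not, while 8 were higher without overlap, beside 17.4%. In zinc-fed pMT-10 mice all 9 were called higher in CD8 cells, beside 13.4%, from 2.31-fold for Tcf7 to 6.79-fold for Ccr7. All 9 were without overlap there, beside 20% of all genes. None was called lower in CD8 cells in the 3 kinds of mouse, beside 12.9, 12.8 and 14.7% of all genes in C57BL/6, control-water and zinc-fed pMT-10 mice. Of the calls in the control mice, those of Lef1 and Satb1 stood in all 6 fits that left out 1 library, in both kinds of mouse. The C57BL/6 call of Klf2 stood in 1 of 6 such fits and that of Tcf7 in 3 of 6. On control water, Klf2 and Bach2 stood in none, Ccr7 in 1, Foxp1 in 5 and Tcf7 in 6.

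**Figure D3:**
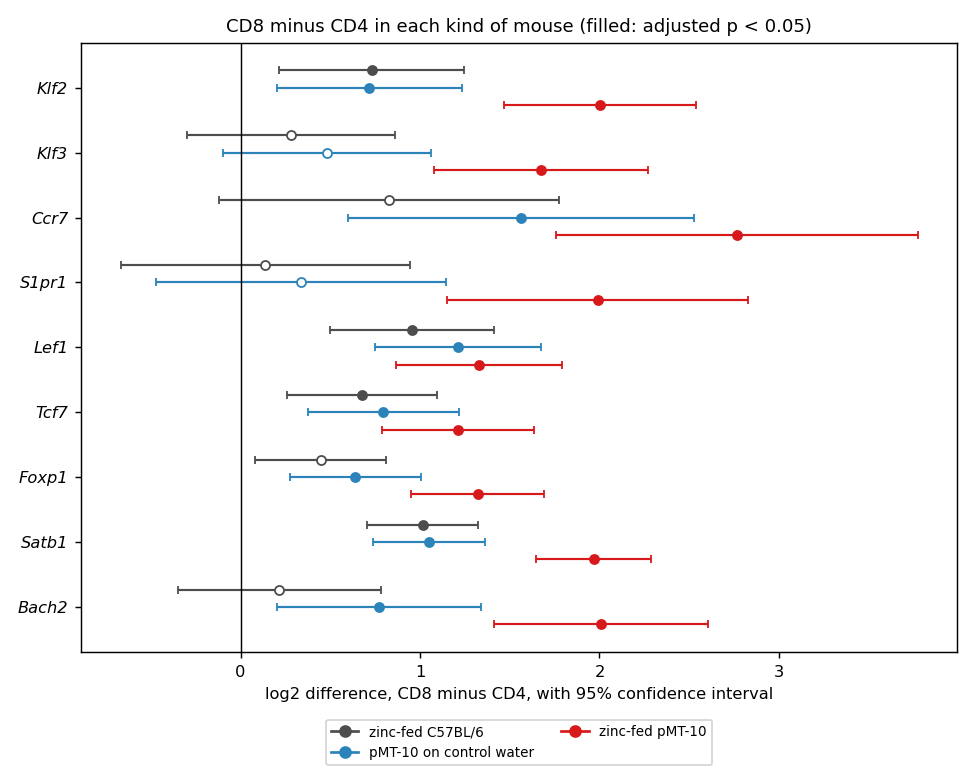
Log2 difference between CD8 and CD4 cells for the 9 genes in zinc-fed C57BL/6 (grey), pMT-10 on control water (blue) and zinc-fed pMT-10 mice (red), with 95% confidence intervals, where filled points passed an adjusted p of 0.05. Every red point is filled and lies to the right of the grey and blue points of its gene.

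Whether the change itself differed between the cell types was tested as an interaction. This test and those of CD8 against CD4 cells treat the libraries as independent, although 3 mice of each kind gave both cell types. Against zinc-fed C57BL/6, 5 of 9 members were called, all with a smaller fall in CD8 cells, beside 3.41% of all genes in that direction. Bach2 had a log2 difference of 1.79 ± 0.39 SE (adjusted p = 0.0109) and Satb1 of 0.95 ± 0.21 SE (adjusted p = 0.0108). Klf3 (1.39, adjusted p = 0.0443), Klf2 (1.27, adjusted p = 0.0376) and Foxp1 (0.87, adjusted p = 0.0425) passed by less. The largest estimates, of Ccr7 (1.94) and S1pr1 (1.85), were not called (adjusted p = 0.0876 and 0.0579). The HMG-box genes had the smallest, 0.38 for Lef1 with an interval of -0.27 to 1.02 and 0.53 for Tcf7 with -0.06 to 1.12. Against control water 2 of 9 were called, beside 2.44%: Klf2 (1.28, adjusted p = 0.0453) and Satb1 (0.92, adjusted p = 0.0179). No member was called in the other direction, beside 2.08 and 1.34% of all genes.

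These interaction calls moved with single libraries. Bach2 kept its call against C57BL/6 in all 12 fits that left out 1 library. Satb1 kept it in 11 of 12, losing it without induced CD4 replicate 1 (adjusted p = 0.0507), while Klf2 and Klf3 kept it in 2 and Foxp1 in 4. Against control water Satb1 was called in 9 of 12 fits and Klf2 in 2. When induced CD4 replicate 2 was left out, 8 of 9 members were called in both interactions, all but Lef1.

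The 3 CD4 libraries of zinc-fed pMT-10 mice were unlike each other for these genes. Replicate 2 was the highest of the 3 for all 9 members, and replicate 3 the lowest for 7. Replicate 2 exceeded the mean of the other two by 4.44-fold for Ccr7, 3.45-fold for S1pr1, 2.79-fold for Bach2 and 2.76-fold for Klf3, but by only 1.47-fold for Foxp1 and 1.404-fold for Satb1. The coefficient of variation of Ccr7 was 93.1% in this group, beside 25.7% in zinc-fed C57BL/6 and 6.397% in pMT-10 on control water. Replicate 2 also had the lowest Il10 of the 3, 16.6 CPM beside 26.0 and 20.9, and the highest sum of 6 regulatory T cell markers. That sum was 1211, 1975 and 1045 CPM in replicates 1, 2 and 3, beside 2783 to 2848 in zinc-fed C57BL/6 and 2414 to 2867 on control water. The part of these differences in the result was not tested.

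Without replicate 2, all 9 members were still called lower in both CD4 comparisons, and 4 of the folds grew by more than 1.5 times. Ccr7 then stood 11.3-fold below C57BL/6 and 7.36-fold below control water, and S1pr1 11.6-fold and 10.6-fold. Klf3 stood 5.10-fold and 5.55-fold below them, and Bach2 5.67-fold and 4.22-fold. In CD8 cells no library had this standing: replicate 2 of the zinc-fed pMT-10 CD8 libraries was highest for 5 members and lowest for 2.

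**Figure D4:**
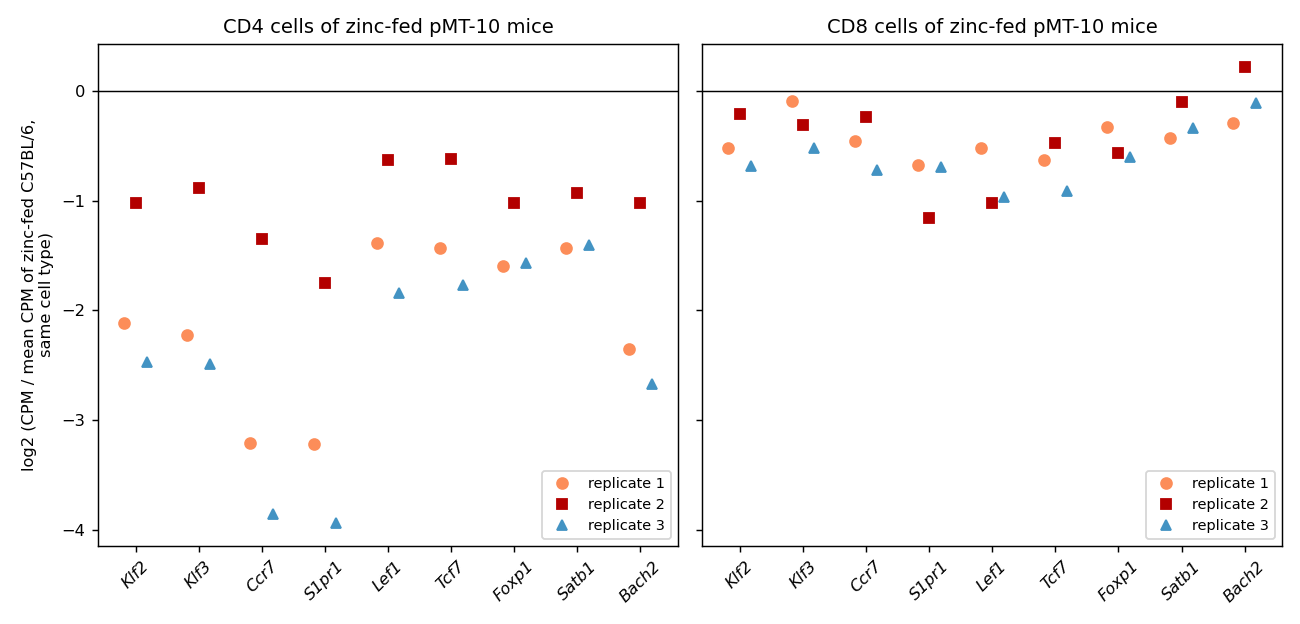
Each zinc-fed pMT-10 library as log2 of its CPM over the mean of zinc-fed C57BL/6 libraries of the same cell type, for CD4 (left) and CD8 (right), where a shared replicate number does not mean a shared mouse. CD4 replicate 2 (squares) is the highest of its 3 for all 9 genes, and all CD4 points lie below 0.

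Other genes of naive T cells were taken from lists by function, which were also made with earlier results of these data known. Of 13 surface and marker genes on the panel, 10 fell in CD4 cells against zinc-fed C57BL/6 and none rose, beside 9.4% and 9.29% of all genes, with a median log2 fold change of -1.69. Il6ra, a chain of the interleukin-6 receptor, fell 8.35-fold (adjusted p = 1.78e-04), Cd55, a complement regulator, 6.26-fold (1.23e-08) and Actn1, an actin crosslinker, 5.77-fold (1.93e-04).

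Il7r, the receptor chain for the survival cytokine interleukin-7, fell in both cell types. CD4 values were 1112, 1055 and 902 CPM in zinc-fed C57BL/6, 1024, 870.1 and 854 on control water and 215, 539 and 199 in induced mice, and CD8 values 1094, 894 and 1086, 1062, 1182 and 1027 and 569, 614 and 509.8 in the same groups. In each cell type the induced libraries lay below every control. The falls against C57BL/6 were 3.22-fold in CD4 (adjusted p = 9.77e-05) and 1.82-fold in CD8 cells (adjusted p = 0.0367). In CD8 cells 3 of the 13 were called lower, beside 3.13% of all genes, and none higher against C57BL/6: Ccr9, a gut-homing receptor, 3.25-fold, Cd55 2.38-fold, and Il7r. Against control water the counts were 9 lower in CD4 cells, beside 9.4% of all genes, and 3 lower in CD8 cells, beside 2.64%, and none higher.

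The other regulators of the naive state did not move in 1 direction. Of 20 such genes, 5 fell and 3 rose in CD4 cells against C57BL/6, beside 9.4% and 9.29% of all genes, with a median log2 fold change of -0.14. Id3, which binds and blocks E proteins, fell 6.66-fold (adjusted p = 1.47e-07), Pik3ip1, an inhibitor of PI3 kinase, 3.28-fold (6.63e-07) and Myb 3.004-fold (0.00252). Ikzf1, which encodes Ikaros, rose 2.197-fold (2.15e-04), Runx1 1.499-fold (0.01103) and Btg1, an antiproliferative factor, 1.42-fold (0.00912). Foxo1, the forkhead factor that drives Klf2 and Il7r, was not called in any of the 4 comparisons, with log2 fold changes of -0.41 and -0.27 in CD4 and -0.42 and -0.30 in CD8 cells. In CD8 cells against C57BL/6, 3 of 20 fell, beside 3.13% of all genes, and none rose: Id3 1.702-fold, Tsc2, an inhibitor of mTOR signalling, 1.49-fold and Btg2 1.37-fold. Against control water, 6 fell and 5 rose in CD4 cells, beside 9.4% and 9.38% of all genes, and 4 fell and none rose in CD8 cells, beside 2.64% and 5.1%.

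**Figure D5:**
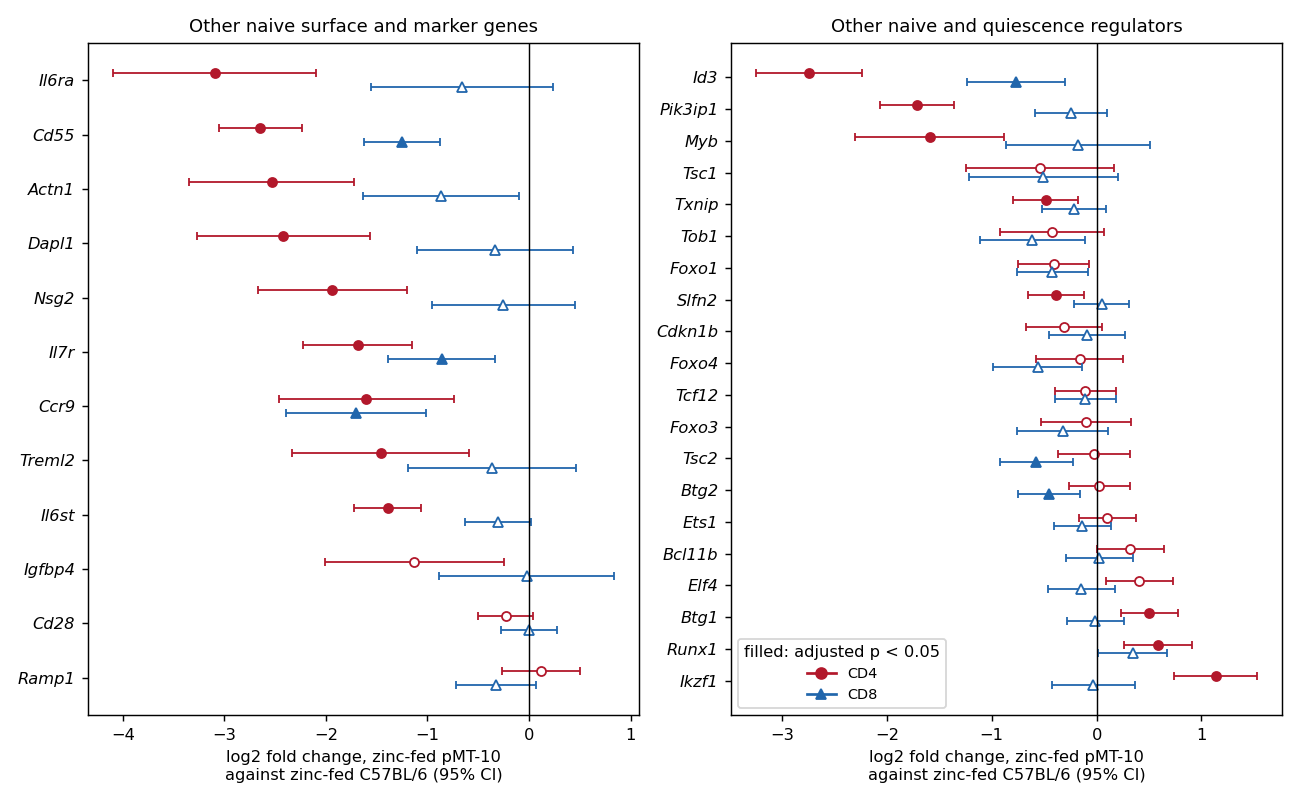
Log2 fold changes in induced pMT-10 mice relative to C57BL/6 mice on zinc, with 95% confidence intervals, of 12 of the 13 naive surface and marker genes (left) and 20 other naive and quiescence regulators (right), in CD4 (red circles) and CD8 cells (blue triangles), where filled points passed an adjusted p of 0.05. On the left 9 CD4 points are filled and all lie below 0, and on the right filled CD4 points lie on both sides of 0.

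Genes of the same families as the members were mostly not called. Of 19 relatives tested, 2 rose and 2 fell in CD4 cells against C57BL/6, beside 9.29% and 9.4% of all genes, shares near that background, with a median log2 fold change of -0.28. Klf10, a Krüppel-like factor, rose 2.66-fold (adjusted p = 4.68e-05), in contrast to Klf2 and Klf3. S1pr4 fell 1.61-fold (3.95e-04), less than S1pr1. Klf4, the other that fell, is named because the count is small, and was chosen after its values were seen. Its log2 fold change was -2.45 (adjusted p = 0.00209), from a mean of 4.86 CPM in zinc-fed C57BL/6 to 0.89 in zinc-fed pMT-10. These means rest on few reads. In CD8 cells against C57BL/6 the relatives called higher included Klf10 (1.77-fold), and those called lower included Cxcr5 (1.77-fold) and Klf13 (1.55-fold). Over all genes 5.68% were called higher there and 3.13% lower. Klf5 and S1pr5 did not pass the filter on low counts.

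Cofactors of TCF-1 and Lef1 were set beside them. Of 11 tested, 4 fell and 1 rose in CD4 cells against C57BL/6, beside 9.4% and 9.29% of all genes, with a median log2 fold change of 0.01. Tle1, a Groucho corepressor, fell 4.74-fold (adjusted p = 0.00115), Bcl9, a coactivator with beta-catenin, 2.21-fold (0.00913) and Axin2, a common TCF target and feedback inhibitor, 1.99-fold (0.00392). Tle3 rose 1.81-fold (1.08e-05). Ctnnb1, the beta-catenin gene, had a log2 fold change of 0.01 (adjusted p = 0.986), and it is named outside the naming rule. In CD8 cells against C57BL/6, 2 of the 11 were called lower and 1 higher, beside 3.13% and 5.68% of all genes.

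Genes known to oppose the programme or to mark effector cells rose in part. Of 11, 6 rose and 1 fell in CD4 cells against C57BL/6, beside 9.29% and 9.4% of all genes, and 5 rose and none fell in CD8 cells, beside 5.68% and 3.13%. Against control water 6 rose and 2 fell in CD4 cells, beside 9.38% and 9.4% of all genes, and 4 rose and none fell in CD8 cells, beside 5.1% and 2.64%. Eomes, a T-box factor of effector and memory cells, measured 14.7, 16.1 and 29.8 CPM in zinc-fed C57BL/6 CD4 cells, 16.7, 12.6 and 7.57 on control water and 368, 281 and 355 in induced mice. These groups are far apart, and Eomes rose 16.6-fold (log2 4.05 ± 0.29 SE, adjusted p = 1.42e-08). In CD8 cells it was not called (0.66, adjusted p = 0.117). Id2, an E-protein inhibitor of effector cells, rose 4.55-fold in CD4 (7.49e-08) and 4.14-fold in CD8 cells (3.54e-07). Prdm1, the gene of the repressor Blimp-1, rose 2.82-fold in CD4 cells (0.0192), from a mean of 74.1 to 209 CPM. In CD8 cells Prdm1 rose 17.7-fold (8.56e-05), from a low mean of 2.18 to 38.7 CPM. Bhlhe40 rose 4.02-fold in CD4 (137 to 550 CPM) and 10.5-fold in CD8 cells (9.86 to 103 CPM). Itgb1, an integrin chain, fell 2.36-fold in CD4 cells (1.41e-05). Against control water Itgb1 and Cd44, an adhesion receptor of activated and memory T cells, fell 2.89-fold and 1.804-fold (1.29e-06 and 0.00213). Cd69, whose product pulls S1pr1 off the cell surface, was not called in any of the 4 comparisons (log2 0.02 and 0.25 in CD4, 0.52 and 0.70 in CD8 cells).

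Across the 6 groups the 9 genes shared an order in part. Zinc-fed pMT-10 CD4 cells had the lowest mean of each gene and overlapped the next group for none. CD8 cells of pMT-10 mice on control water had the highest mean for 8 of 9, and zinc-fed C57BL/6 CD8 cells for Tcf7, and the highest and second groups overlapped for every gene. The middle of the order differed: zinc-fed pMT-10 CD8 cells ranked the third for Klf2, Ccr7, Lef1, Tcf7, Satb1 and Bach2, the fourth for Foxp1 and the fifth for Klf3 and S1pr1. In that place they overlapped the group just above for Klf3, Tcf7, Foxp1 and Bach2, and did not for the other 5. The highest group mean exceeded the lowest by 10.1-fold for Ccr7, 7.34-fold for S1pr1, 5.86-fold for Klf2 and 3.596-fold for Foxp1. Amplicons may differ in efficiency, so levels are compared between groups and not between genes.

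Likeness of pattern was measured as the root mean square difference, on the log2 scale, between the 6 group means of a pair of genes after each was centred on its own mean. Among the members, Tcf7 and Foxp1 were closest, at 0.129, and Klf2 and Klf3 followed, at 0.177. For every member, other genes lay nearer than its nearest member, from 7 such genes for Klf2 and Tcf7 to 61 for Ccr7. Ccr7 was the farthest from its nearest member, Klf2, at 0.428, over a range of 3.73 in its own group means. Of all other genes tested, the nearest were Gm37065 to Klf2 (0.0623), Myb to Klf3 (0.0774), Tle1 to Ccr7 (0.0960), Mob3b to S1pr1 (0.0835), Terc to Lef1 (0.0896), Scarna13 to Tcf7 (0.115), Angptl6 to Foxp1 (0.0820), Spice1 to Satb1 (0.0909) and Slc25a2 to Bach2 (0.103). Several of these have few reads, such as Slc25a2 with 6, 8 and 9 and Mob3b with 8, 11 and 3 in the zinc-fed pMT-10 CD4 libraries. These likenesses rest on 6 means from 18 libraries and describe this set only.

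Markers of other cells also differed between the groups. The 8 B cell markers on the panel summed to 27.0 to 32.4 CPM in zinc-fed C57BL/6 CD4 cells, 6.59 to 22.1 in zinc-fed pMT-10 and 29.9 to 37.3 on control water, with Pax5 at 0 in every library. The 5 thymocyte and precursor markers summed to 11.3 to 24.8, 0.718 to 1.51 and 6.83 to 14.8 CPM in these groups, with Rag2 and Ptcra at 0 in all 3. Dntt made up most of this sum, with means of 17.5, 0.962 and 9.07 CPM. The 6 NK cell markers summed to 44.99 to 58.8, 11.9 to 20.3 and 187 to 214. Most of that was Klrb1c, with means of 39.9, 9.44 and 171 CPM. In CD8 cells of the same kinds of mouse, in that order, the NK cell markers summed to 79.8 to 141, 34.2 to 66.2 and 71.2 to 130 CPM. Thymocyte and precursor markers summed there to 17.7 to 42.1, 10.7 to 19.6 and 22.6 to 35.1 CPM. B cell markers summed there to 43.4 to 53.1, 25.7 to 45.9 and 33.8 to 57.9 CPM. The 9 neutrophil markers summed to at most 5.42 CPM in any library, with Ly6g at 0 in all. Monocyte markers summed to 4.44 to 9.21 CPM in CD4 cells of zinc-fed pMT-10 mice and 9.67 to 15.7 in both control groups, and erythroid markers to at most 10.4 CPM in any library. Of the 6 regulatory T cell markers, 4 were called lower in CD4 cells against each control, beside 9.4% of all genes. Foxp3, also on this list, was not called in either comparison. Its CD4 means were 1656 CPM in zinc-fed C57BL/6, 963 in zinc-fed pMT-10 and 1570 on control water. The sum of the 6 T cell and sort markers on the panel went the other way in CD4 cells. It was 4796 to 4974 CPM in zinc-fed C57BL/6, 7181 to 8168 in zinc-fed pMT-10 and 3941 to 4015 on control water. Of these, Cd3e and Cd3g, chains of the T cell receptor complex, rose 1.61-fold and 1.78-fold against C57BL/6 (adjusted p = 6.60e-04 and 1.73e-04). No other of the 6 was called there, beside 9.29% of all genes called higher and 9.4% lower. The means of Cd3d and Cd4 were higher in zinc-fed pMT-10 than in C57BL/6. Those of Cd8a and Cd8b1 were lower, at 1.33 and 20.4 CPM beside 4.99 and 27.9. In CD8 cells the sums were 7798 to 8198, 6569 to 7643 and 6561 to 7484 CPM in the same groups, and both pMT-10 groups lay below C57BL/6 and overlapped each other. The part of these markers in the fall of the 9 genes was not tested.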

How the data were processed

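Amplicon libraries of CD4 and CD8 T cells were analysed from the read counts per amplicon that the authors deposited unscaled, with 1 amplicon for each of 23930 genes. The submitters' processing notes give the build as mm10. Aligner, counter and molecular identifiers: not given in the sources used here. Each column was matched to its sample by the barcode and chip in the labels. Whether replicates of a group differ in more than the mouse is not stated, so p-values measure the spread between these samples.

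Low counts were removed with filterByExpr, and TMM-scaled counts were fitted in edgeR 4.0.16 (R 4.3.3) by robust quasi-likelihood, with 6 group means over all 18 libraries and Benjamini-Hochberg adjustment over 11316 genes. Errors on log2 fold changes are standard errors, and folds are ratios of mean CPM. Alternatives were other scalings, DESeq2 1.42.0, limma-voom 3.58.1, no filter, fits of only the groups compared, and leaving out each library. The fit was tested on simulated data. An exact permutation test of 3 against 3 cannot go below p = 0.1.

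The members and gene lists were chosen with earlier results of these data known. Text names all 9 members, up to 3 called genes per list, direction and comparison of the largest change, the nearest gene to each member, and Foxo1, Il7r, Cd69, Prdm1 and Id2, but some genes of the lists are not reported here. Promoters are RefSeq windows of GRCm38.p6.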

Additional observations from a re-analysis of the deposited data

Results flagged for a closer look

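The fall in zinc-fed pMT-10 mice differed between CD4 and CD8 cells for 5 of the 9 genes when measured against zinc-fed C57BL/6. Each is a test of the difference itself, in edgeR's quasi-likelihood fit, and is given as the log2 change in CD8 minus that in CD4 cells. The values were 1.27 for Klf2 (adjusted p = 0.0376), 1.39 for Klf3 (0.0443), 0.87 for Foxp1 (0.0425), 0.95 for Satb1 (0.0108) and 1.79 for Bach2 (0.0109). Against pMT-10 mice on control water the difference was 1.28 for Klf2 (adjusted p = 0.0453) and 0.92 for Satb1 (0.0179). All 7 are positive, so the fall was smaller in CD8 cells. Both sets use the same induced libraries. Of these, the Bach2 call was the only one kept in all 12 fits that left out a single library.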

How the results depend on the processing

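All 9 members stayed called lower in both CD4 comparisons under each other scaling and tool, and when a library was left out, except Ccr7 against control water without zinc-fed pMT-10 CD4 replicate 1. In CD8 cells against C57BL/6 the 2 calls became 1 with library size only, 6 without the filter, and 0 to 2 without 1 library. Against control water the 1 call became 2 in DESeq2, 7 without the filter, 3 with only the groups compared, and 0 to 1 without 1 library. Between CD4 controls 0 became 1 without the filter. CD8 against CD4 gave 4 calls in C57BL/6 (2 to 4 without 1 library) and 7 on control water (3 to 5). The interaction against C57BL/6 gave 5, then 2 with only the groups compared and 1 to 8 without 1 library. That against control water gave 2, then 5 in limma-voom, 6 without the filter, 1 with only the groups compared and 0 to 8 without 1 library. The cause was not tested.

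Changes that turned sign were all uncalled. Bach2 in CD8 cells against C57BL/6 became 0.0082 with library size only and ran from -0.18 to 0.065 without 1 library. Satb1 between CD4 controls became -0.0116 with RLE factors, -0.0115 in DESeq2 and -0.0085 with only the groups compared, and ran from -0.16 to 0.093 without 1 library. Between CD8 controls, leaving out a library gave ranges of -0.14 to 0.196 for S1pr1, -0.064 to 0.199 for Lef1, -0.17 to 0.24 for Foxp1, -0.0083 to 0.18 for Klf2 and -0.027 to 0.28 for Ccr7. The Lef1 interaction against control water ran from -0.12 to 0.51.

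Counts over all genes moved too. Without zinc-fed pMT-10 CD4 replicate 1, 2115 calls against C57BL/6 became 1377, and 2125 against control water became 1373. In CD8 cells 997 became 588 with only the groups compared and 587 without C57BL/6 replicate 3, and 876 became 565 without control-water replicate 3. Between controls 16 became 33 in DESeq2 and 83 without the filter in CD4 cells, with 7 as the lowest without a library, and 11 became 42 and 107 in CD8 cells. The interactions moved from 621 to 1030, 1055 and, with only the groups compared, 410, and from 428 to 799 and 847. Leaving out zinc-fed pMT-10 CD4 replicate 1 gave 255 and 133. With library size only, the median of all genes shifted by -0.11 and -0.15 in the CD4 comparisons, where the share of calls that were higher went from 49.7 to 36.5% and from 49.9 to 31.3%. It shifted by 0.16 and 0.17 in the interactions (62.2 to 84.4% and 64.5 to 87.6%). That share went from 64.5 to 74.9% in CD8 cells against C57BL/6, and from 47.6 to 57.7% and 41.2 to 31.0% for CD8 against CD4 in zinc-fed pMT-10 and on control water. No paired analysis was possible because the labels give no replicate number that groups share. Every member had at least 225 reads in each library, and no test was run at other depths.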
